A study of Homo sapiens with 4 samples.

Results

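RNA sensors and transcription factors of the interferon pathway were followed in T47D cells, a line of human ER+ breast cancer, after depletion of ferredoxin reductase (FDXR), the mitochondrial flavoprotein that passes electrons from NADPH to ferredoxin. The gene set was chosen by name, with earlier results of these data known. It holds 9 genes: the sensors DDX58, IFIH1, DHX58 and TLR3, the DNA-sensing adaptor TMEM173, and the factors STAT2, IRF1, IRF7 and IRF9. Of these, 8 had a probe named in the annotation of the array, out of 14679 genes named there, and each had 1 probe. DDX58 and TMEM173 were found under their current symbols, RIGI and STING1, which are used from here on. STAT2 had no named probe and was not analysed here. Both groups were T47D cells infected with virus, one group with virus for the control hairpin (shControl) and the other with virus for 1 hairpin against FDXR (FDXR sh434). The labels call the virus a retrovirus and the study's methods a lentivirus, and the methods name antibiotic selection after infection. Total RNA of 2 biological replicates per group was hybridised to 4 Affymetrix arrays.

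Cells detect viral RNA in the cytosol through the RIG-I-like receptors and in endosomes through TLR3, while STING1 relays the detection of cytosolic DNA. These signals activate IRF factors, which switch on interferon genes. Secreted interferon then acts through its receptors and JAK kinases to bring STAT2 and IRF9 into a complex that binds the interferon-stimulated response element (ISRE). Most of the sensors and several IRF genes are themselves induced by interferon, so the pathway feeds back on its own parts.

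In FDXR sh434 cells the signals of RIGI and TLR3 were lower by about the same factor, at 69.0% and 68.9% of the shControl level. Those of IRF1, IFIH1 and IRF7 were at 75.0%, 78.4% and 81.8%. DHX58, the third RIG-I-like receptor, lay on the other side, at 121% of the shControl level, and IRF9 and STING1 stayed within 2 percent of it, at 98.6% and 101%. For 5 of the 8 genes both FDXR sh434 arrays were under both shControl arrays, and for 1 they were over them. Across all 38598 probes the first pattern held for 23.1% and the second for 25.6%. In limma, with Benjamini-Hochberg adjustment over all probes, 0 of the 8 genes reached an adjusted p under 0.05, a threshold that 0.402% of all probes passed as lower and 0.298% as higher. RNA was taken from whole cultures, so fewer expressing cells and less RNA per cell cannot be told apart.

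The deposited values are log2 signals, so a difference of 1 is a factor of 2. The median signal of an array was 4.76 to 4.78, and the Pearson correlation across probes, which are not independent replicates, was 0.991 and 0.994 within the groups and 0.987 to 0.988 between them. All 8 genes lay above the median signal on all 4 arrays. The signal over background is unknown, so this does not by itself show expression. FDXR has no named probe, so its own depletion was not analysed here. On 3 arrays the source name carries a cell line name other than T47D, although the growth protocol names T47D throughout. The source names alone do not show that another line was used. Of 11 measured markers of luminal epithelium, which include GATA3 and KRT18, 11 lay above the median signal on every array. In limma 0 of them passed, and in a second limma fit, in which the spread depends on the signal, 1 was lower and 2 were higher. The second fit called 3.41% of all probes lower and 5.02% higher. The progesterone receptor gene PGR, a target of the estrogen receptor, had a log2 fold change of -0.75 (adjusted p = 0.0575 in limma and 8.26e-05 in the second fit). The epithelial factor SPDEF had 0.52 (adjusted p = 0.149 and 0.00578) and the keratin KRT18 0.26 (adjusted p = 0.287 and 0.0105), while ESR1, the estrogen receptor gene, had -0.37 (adjusted p = 0.236 and 0.0513). PGR, SPDEF and ESR1 are named after their values were seen. Of 6 measured stromal and immune markers, 3 lay above the median signal on every array. CSF1R, from this list, had log2 signals of 5.022 to 5.304 over the arrays, near the 5.130 to 5.314 of STING1. CD68, from the same list, had 6.472 to 6.777, above IRF1, IRF7, TLR3 and STING1 on every array. The median of the latter list was 4.54 to 4.67 with shControl and 4.62 to 4.77 with FDXR sh434, and none of its genes passed in either fit. At an unadjusted p under 0.05 in limma, 0 of them were lower and 1 was higher, CD68 at a log2 fold change of 0.29. Of the luminal markers, 2 were lower and 2 higher at that threshold, against 7.82% and 9.44% of all probes. The part of both marker lists in the results was not tested.

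The stretches of DNA just upstream of these genes were searched for motifs of the pathway's own factors. The 250 bases before the annotated transcript start are given for 5 measured members, 5′ to 3′ on the strand of the gene, from the RefSeq promoter table of build GRCh38.p14. IRF7, DHX58 and STING1 are not in that table. Capitals mark matches to the ISRE core (GAAA and GAAA with 2 bases of any kind between them), the gamma-activated sequence bound by STAT dimers (GAS, TTC and GAA with 3 bases between them) and the NF-kappa B consensus, each searched on both strands.
RIGI, chr9:32526197-32526446, minus strand: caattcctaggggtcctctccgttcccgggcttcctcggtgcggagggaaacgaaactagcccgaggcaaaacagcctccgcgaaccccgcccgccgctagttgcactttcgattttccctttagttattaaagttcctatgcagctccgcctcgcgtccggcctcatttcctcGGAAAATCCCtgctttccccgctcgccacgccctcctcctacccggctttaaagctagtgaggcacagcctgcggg
IFIH1, chr2:162318685-162318934, minus strand: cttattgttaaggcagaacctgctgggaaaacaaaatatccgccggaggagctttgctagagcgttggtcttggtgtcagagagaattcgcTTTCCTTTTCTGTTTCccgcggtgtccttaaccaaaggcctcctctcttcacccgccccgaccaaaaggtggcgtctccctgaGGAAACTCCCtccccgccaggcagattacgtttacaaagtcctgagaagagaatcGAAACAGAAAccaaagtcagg
TLR3, chr4:186068906-186069155, plus strand: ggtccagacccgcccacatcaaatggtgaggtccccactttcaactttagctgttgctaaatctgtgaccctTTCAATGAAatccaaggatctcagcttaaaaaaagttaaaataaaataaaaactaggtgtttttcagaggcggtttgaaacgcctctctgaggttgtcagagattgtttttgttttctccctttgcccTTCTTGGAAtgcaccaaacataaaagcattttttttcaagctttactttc
IRF1, chr5:132490774-132491023, minus strand: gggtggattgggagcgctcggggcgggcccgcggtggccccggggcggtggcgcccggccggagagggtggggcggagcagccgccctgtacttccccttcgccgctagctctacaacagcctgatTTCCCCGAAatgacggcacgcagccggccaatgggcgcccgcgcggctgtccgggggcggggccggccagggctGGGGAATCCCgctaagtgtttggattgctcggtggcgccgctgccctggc
IRF9, chr14:24161015-24161264, plus strand: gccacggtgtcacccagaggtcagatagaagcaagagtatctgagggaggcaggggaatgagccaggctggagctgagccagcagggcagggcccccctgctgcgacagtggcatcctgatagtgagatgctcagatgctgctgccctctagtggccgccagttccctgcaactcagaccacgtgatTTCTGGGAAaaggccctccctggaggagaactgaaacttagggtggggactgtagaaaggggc

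IFIH1 was the one member of the 6 with a promoter in the table whose window held the ISRE core, at 3 places, of which 2 overlap. They start 159, 153 and 21 bases upstream of the transcript start. IRF1 held a GAS match 124 bases upstream and an NF-kappa B match 50 bases upstream. TLR3 held 2 GAS matches, at 178 and 50 bases, and IRF9 held 1, at 63 bases. RIGI and IFIH1 each held 1 NF-kappa B match, both starting 76 bases upstream, and the window of STAT2 held none of the 3 motifs. Of 35116 promoters in the table, where a gene can have several starts, 3.02% held the ISRE core, 6.57% the GAS and 9.96% the NF-kappa B consensus in the same window. Of 31 promoters of interferon-stimulated target genes, which were listed from memory, 61.3% held the ISRE core, 16.1% the GAS and 9.68% the NF-kappa B consensus. No motif stood upstream of all of RIGI, IFIH1, TLR3 and IRF1, the members with lower signals that have a window. IRF7, also lower, has none, and looser forms of the motifs were not searched. A GAS match stood upstream of IRF1 and TLR3 and also of IRF9. These matches are letters in a window and not sites of binding.

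**Figure D1:**
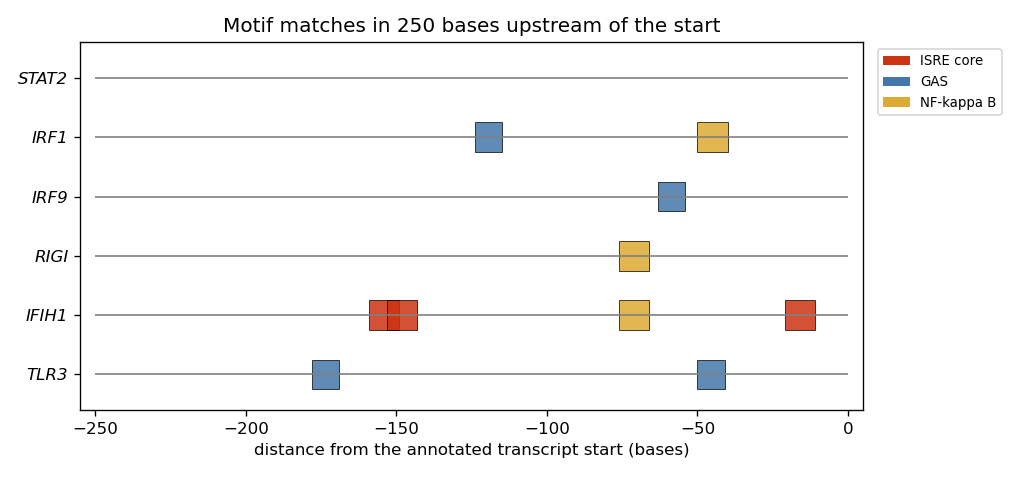
Position of motif matches in the 250 bases upstream of the annotated start of 6 genes, with the distance from the start in bases on the horizontal axis and boxes drawn at the length of the motif (red, ISRE core; blue, GAS; yellow, NF-kappa B consensus). The 3 red boxes are all in IFIH1, STAT2 has none, and IRF9, at 98.6% of its shControl level, carries a blue box as IRF1 and TLR3 do.

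RIGI encodes RIG-I, the helicase that recognises the triphosphate end of short viral RNA. On the log2 scale its signal was 9.694 and 9.620 with shControl and 9.119 and 9.126 with FDXR sh434. The groups were separated by 0.494, while the arrays within a group differed by 0.0741 and 0.0066. The log2 fold change was -0.53 (standard error, SE, 0.103, 95% interval -0.79 to -0.28) with an adjusted p = 0.0931 from limma. The second limma fit estimated the spread as a function of the signal, with robust estimation, and there RIGI fell with an adjusted p = 0.000714. That fit called 2 of the 8 genes lower and 0 higher, against 3.41% and 5.02% of all probes. The RIGI call of the second fit was kept without any 1 of the 4 arrays, with an adjusted p from 0.000297 to 0.0422.

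IFIH1 encodes MDA5, the receptor for long double-stranded RNA. The shControl arrays gave log2 signals of 8.138 and 7.828 and both FDXR sh434 arrays 7.633. Both FDXR sh434 arrays were lower, but the shControl arrays lay 0.310 apart, more than the 0.195 between the groups. The log2 fold change of -0.35 (SE 0.137, 95% interval -0.69 to -0.0058) did not pass in limma, with an adjusted p = 0.285, nor with the signal-dependent spread, with an adjusted p = 0.0750. Its size depended on which shControl array was kept. It was -0.20 without shControl replicate 1 and -0.51 without shControl replicate 2, and in the latter case the fit with the signal-dependent spread gave an adjusted p = 0.00304.

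DHX58 encodes LGP2, the RIG-I-like receptor that lacks the signalling domain of the other two and modulates them. The 2 shControl arrays read 7.091 and 7.132 in log2 signal, and the FDXR sh434 arrays read 7.336 and 7.428. Both FDXR sh434 arrays lay above both shControl arrays, by 0.204 or more, and DHX58 was the one measured member with that order. DHX58 had a log2 fold change of 0.27 (SE 0.105, 95% interval 0.0079 to 0.53), with an adjusted p = 0.279 from limma and 0.0898 with the signal-dependent spread. The interval of DHX58 lay wholly above 0 and those of RIGI and IFIH1 wholly below it, before any adjustment for the number of probes, and the difference between the genes was not tested.

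TLR3 is the endosomal receptor for double-stranded RNA. In shControl cells its log2 signals were 5.952 and 5.705, in FDXR sh434 cells 5.298 and 5.285. The groups lay 0.407 apart and the shControl arrays 0.247 apart. For TLR3 this was a log2 fold change of -0.54 (SE 0.125, 95% interval -0.85 to -0.22), with an adjusted p = 0.129 from limma. With the signal-dependent spread TLR3 fell, with an adjusted p = 0.0356. This call held without shControl replicate 2 (adjusted p = 0.0173) and was lost without shControl replicate 1 (adjusted p = 0.109), without FDXR sh434 replicate 1 (adjusted p = 0.230) and without FDXR sh434 replicate 2 (adjusted p = 0.232).

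STING1 encodes the adaptor of the endoplasmic reticulum that answers the cyclic dinucleotide made by cGAS on cytosolic DNA. Log2 signals of 5.133 and 5.288 in shControl cells stood beside 5.130 and 5.314 in FDXR sh434 cells. The arrays of the groups interleaved. The log2 fold change was 0.01 (SE 0.124, adjusted p = 0.972 from limma), and its 95% interval, -0.30 to 0.32, leaves room for a change in either direction of the size seen in IRF7 or DHX58. CGAS, the sensor upstream of STING1, had log2 signals of 2.918 and 3.816 in shControl cells and 3.295 and 2.912 in FDXR sh434 cells, all under the median signal of the array, with a log2 fold change of -0.26 (SE 0.312, adjusted p = 0.720). CGAS is named after its values were seen.

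**Figure D2:**
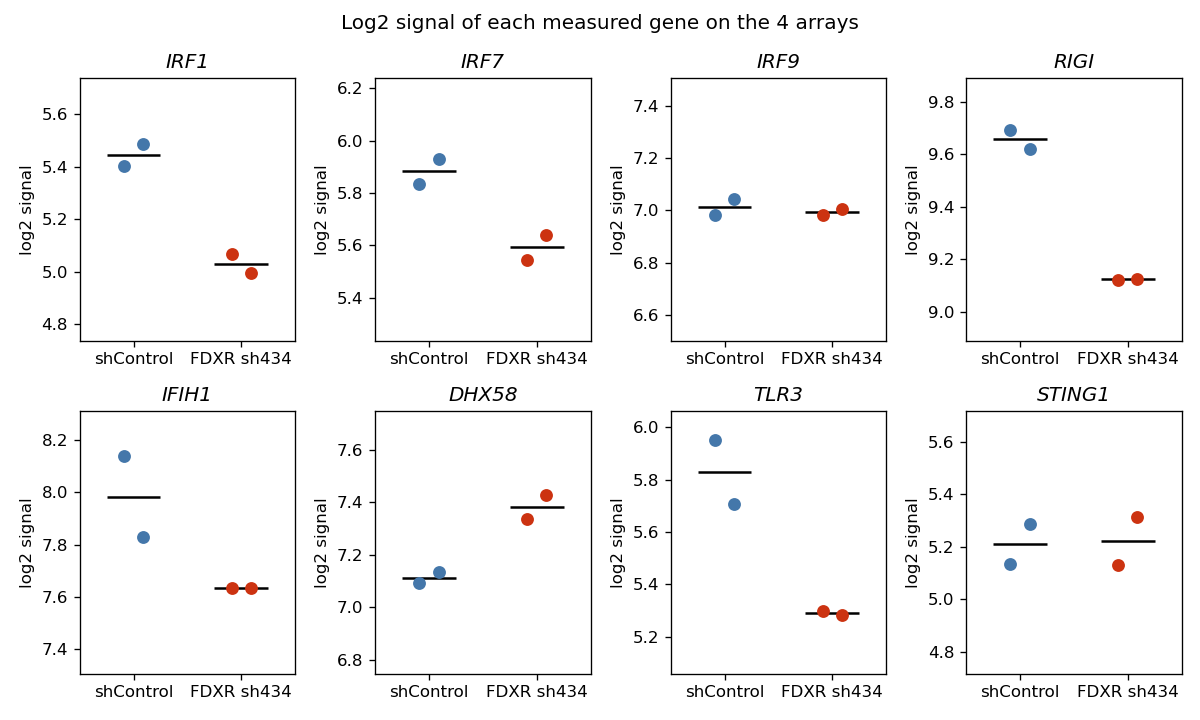
Log2 signal of the 8 measured genes on the 2 shControl arrays (blue) and the 2 FDXR sh434 arrays (red), with the group mean as a bar. Each panel spans 1 log2 unit around the mean of its gene. The groups are apart in 6 panels, with FDXR sh434 lower in 5 and higher for DHX58, and overlap for IRF9 and STING1.

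Among the transcription factors, IRF1 activates interferon-stimulated and antigen presentation genes and is itself induced by interferon. For IRF1 the shControl log2 signals were 5.404 and 5.486, and those of FDXR sh434 were 5.067 and 4.994. The groups were 0.337 apart, and within a group the arrays differed by 0.0815 and 0.0735. The log2 fold change of -0.41 (SE 0.106, 95% interval -0.68 to -0.15) had an adjusted p = 0.147 from limma and 0.0868 with the signal-dependent spread. When the probes with a mean under the median were removed first, IRF1 passed in limma (adjusted p = 0.0325), as RIGI (adjusted p = 0.0152) and TLR3 (adjusted p = 0.0294) did there. The share of all probes that passed in that setting was not counted.

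IRF7 is the factor that amplifies the transcription of the type I interferon genes. It had log2 signals of 5.835 and 5.929 in shControl cells, against 5.543 and 5.641 in FDXR sh434 cells. The groups were 0.194 apart, about the distance between IFIH1's groups, with 0.0941 and 0.0978 between arrays of a group. This gave IRF7 a log2 fold change of -0.29 (SE 0.108, 95% interval -0.56 to -0.018), with an adjusted p = 0.266 from limma and 0.196 with the signal-dependent spread.

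IRF9 is the DNA-binding partner of STAT2. The log2 signals of IRF9 were 6.984 and 7.044 with shControl and 6.982 and 7.004 with FDXR sh434. The arrays of the groups overlapped, and the log2 fold change was -0.02 (SE 0.102, adjusted p = 0.943 from limma). The 95% interval, -0.28 to 0.24, did not reach the fold changes of RIGI, TLR3, IRF1, IFIH1 or IRF7. These have intervals of their own, and that of IRF7, -0.56 to -0.018, overlapped that of IRF9. The difference between the genes was not tested.

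**Figure D3:**
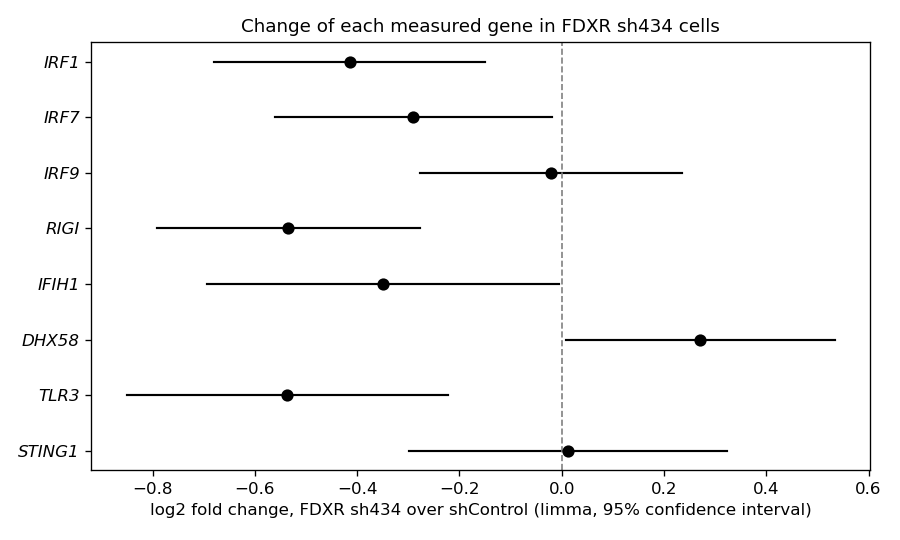
Log2 fold change of the 8 measured genes, FDXR sh434 over shControl, with the 95% confidence interval from limma, not adjusted for the number of probes. The intervals of IRF1, IRF7, RIGI, IFIH1 and TLR3 lie below 0, that of DHX58 lies just above it, and those of IRF9 and STING1 span it.

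At an unadjusted p under 0.05, limma placed 5 of the 8 genes lower and 1 higher, against 7.82% and 9.44% of all probes. Their median log2 fold change was -0.32, beside 0.0041 over all probes tested and 0.0285 over the named probes. Without any 1 array the median ranged from -0.34 to -0.27. Leaving out 1 array turned the sign for IRF9 and STING1 alone, and the signs of the other 6 genes were kept.

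**Figure D4:**
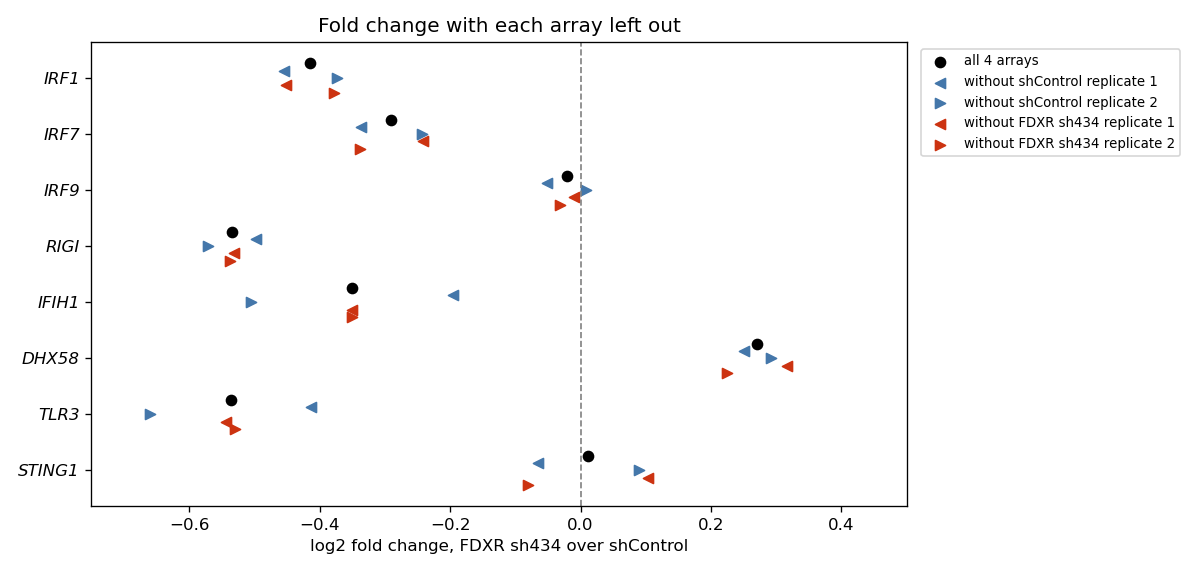
Log2 fold change of the 8 measured genes with all 4 arrays (black) and with each array left out in turn (blue, a shControl array; red, an FDXR sh434 array). IFIH1 and TLR3 move most with the shControl arrays, from -0.20 to -0.51 and from -0.41 to -0.66, while RIGI stays between -0.57 and -0.50.

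The other genes of the pathway were counted by role, from lists written from memory with earlier results of these data known. Of 21 interferon genes none had a named probe, so the ligands were not analysed here. Of 5 measured receptors and JAK kinases, 0 passed in limma. JAK1, the kinase shared by all interferon receptors, had log2 signals of 10.449 and 10.432 with shControl and 9.871 and 9.802 with FDXR sh434. Its log2 fold change was -0.60 (SE 0.103, adjusted p = 0.0775), and with the signal-dependent spread JAK1 fell with an adjusted p = 0.000208. In that second fit JAK2 was lower as well, at -0.62 (adjusted p = 0.0296), and IFNGR1, the ligand-binding chain of the interferon gamma receptor, was higher, at 0.61 (adjusted p = 0.0262). These 2 genes are named after their values were seen. IFNGR2, the other chain of that receptor, had a log2 fold change of -0.27 (SE 0.104, adjusted p = 0.281 from limma).

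Of 7 other STAT and IRF genes, 0 passed in either fit, with a median log2 fold change of -0.04 and a range from -0.33 to 0.10. STAT3 had a log2 fold change of -0.02 (SE 0.100, adjusted p = 0.939) and IRF2, an antagonist of IRF1, one of 0.10 (SE 0.133, adjusted p = 0.762). Of 11 other nucleic acid sensors, 0 passed in limma, with a median of -0.07. The RNA helicases DHX9 and DHX36 had log2 fold changes of -0.12 (adjusted p = 0.635) and -0.02 (adjusted p = 0.933). With the signal-dependent spread 1 sensor was lower, the interferon-induced helicase DDX60 at -0.77 (adjusted p = 0.00149), and 1 was higher, the helicase DDX41 at 0.31 (adjusted p = 0.0403), both named after their values were seen.

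The adaptors and kinases that carry the signal from the sensors to the IRF factors lay on both sides of 0. Of 13 measured, 0 passed in limma, and their log2 fold changes ran from -0.33 to 0.29 around a median of 0.0059. Both FDXR sh434 arrays were under both shControl arrays for 5 of them and over them for 5, against 23.1% and 25.6% of all probes. TRIM25, the ubiquitin ligase that acts on RIG-I, had one of -0.17 (SE 0.102, adjusted p = 0.471) and TBK1, the kinase of IRF3, one of -0.33 (SE 0.129, adjusted p = 0.286). MAVS, the mitochondrial adaptor of RIG-I and MDA5, was the one gene of this list that passed with the signal-dependent spread. It was higher, at 0.29 (adjusted p = 0.252 in limma and 0.0460 with that spread). The fit with that spread called 5.02% of all probes higher. MAVS is named after its values were seen. With shControl its log2 signals were 7.670 and 7.725, and with FDXR sh434 7.954 and 8.015. RIGI was below its shControl level, and the difference between MAVS and RIGI was not tested.

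Of 11 measured negative regulators, 0 passed in limma and the median was 0.12. USP18, an interferon-induced protease that blocks signalling at the receptor, had log2 signals of 8.752 and 9.099 with shControl and 8.209 and 8.284 with FDXR sh434, a log2 fold change of -0.68 (SE 0.147, adjusted p = 0.115). SAMHD1, which hydrolyses deoxynucleotides, had one of -0.67 (SE 0.112, adjusted p = 0.0756). With the signal-dependent spread both were lower, with an adjusted p = 0.00427 for USP18 and 0.000478 for SAMHD1, and IRF2BP2, a corepressor of IRF2, was higher at 0.42 (adjusted p = 0.00640). IRF2BP2 is named after its values were seen.

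Of 28 measured interferon-stimulated target genes, 3 were lower and 0 higher in limma. The median was -0.58, beside -0.32 for the 8 sensors and factors. IFI44L, IFIT3 and ISG15, the ones that passed, had log2 fold changes of -1.69, -1.34 and -1.20 (adjusted p = 0.0202, 0.0234 and 0.0260), calls that were lost when any 1 array was left out. IFI44L had log2 signals of 4.993 and 5.03 with shControl and 3.38 and 3.262 with FDXR sh434. Its FDXR sh434 values lay under the median signal of the array. IFITM1 and BST2, membrane proteins that block viral entry and release, had log2 fold changes of -0.72 and -0.85 and did not pass (adjusted p = 0.0614 and 0.0512). With the signal-dependent spread 19 of the 28 were lower and 0 higher, against 3.41% and 5.02% of all probes. Over all 75 measured pathway genes, that fit called 24 lower and 4 higher, the latter near its share of all probes. Limma without it called 3 lower and 0 higher, against 0.402% and 0.298% of all probes.

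**Figure D5:**
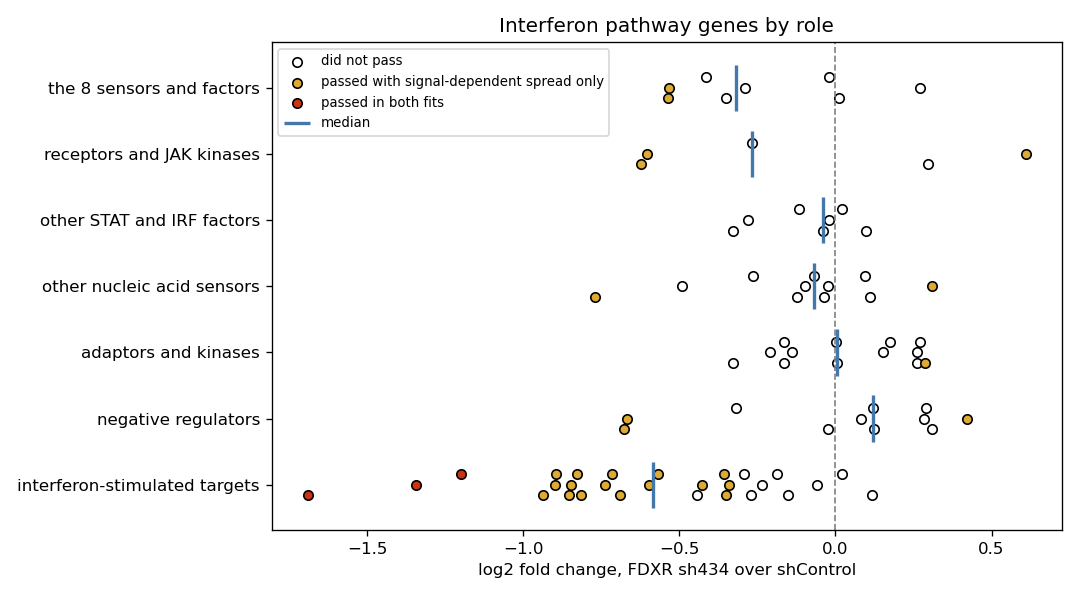
Log2 fold change of the 8 sensors and factors and of 75 other measured pathway genes by role, FDXR sh434 over shControl, 1 point per gene and a blue bar at the median. Red points passed in limma and in the fit with the signal-dependent spread, yellow points in the latter alone. The targets reach -1.69, at IFI44L, whose FDXR sh434 signals lay under the array median. The sensors and factors lie between -0.54 and 0.27.

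By the distance between their values over the 4 arrays, each gene centred on its shControl mean, the genes most like the 3 members with the largest fold changes were taken from 9762 named genes at or above the median signal. For RIGI they were PI4K2B (distance 0.0333 log2 units), GALNT7 (0.0502) and TNF (0.0564), whose values are repeated on other probes. For TLR3 they were CREBZF (0.0335), MIR99AHG (0.0517) and DDHD2 (0.0570), and for IRF1 they were ANGEL1 (0.0143), MIR551B (0.0311) and EML2 (0.0443). None of these genes is a listed member of the pathway, and 4 arrays give little to tell profiles apart.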

How the data were processed

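The authors deposited log2 signals for 38598 probes on 4 Affymetrix arrays, 2 per group. The tool and settings that summarised, background-corrected and normalized them are not given in the sources used here. Processing notes of the submitters list limma 3.50.3. Without scanner values the signal over background is unknown, and precision is limited by the number of arrays. Gene names came from the array annotation, with 15715 having 1 gene symbol, 0 several and 22883 none. The brightest probe stood for a gene with several. Older symbols were matched through RefSeq.

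FDXR sh434 was compared with shControl by lmFit and eBayes of limma 3.58.1 (R 4.3.3) on all probes, two-sided, with Benjamini-Hochberg adjustment and a threshold of 0.05, the test that the study's methods name. The fit had 2 residual and 3.45 prior degrees of freedom. The signal-dependent spread is eBayes with an intensity trend and robust estimation. The fits were run on simulated data with planted changes larger than those of any member, so that run does not cover changes of the size seen here. Its noise followed the signal, as the second fit assumes, so it does not decide between the fits. Groups came from the sample titles. The labelled biological replicates are the only replication behind the p-values. In limma the spread of each probe between replicates is also drawn toward a prior estimated from all probes. There were 18 alternatives, and the closing section gives their effect. Named genes were all members and, in each list, at most 4 that passed and the 2 brightest that did not, and the 3 nearest profiles of 3 members. Other genes are marked as named after their values were seen. The members and lists were chosen with earlier results of these data known, so no list was tested as a set. Promoter windows came from the RefSeq table of GRCh38.p14 and were searched with Python 3.11.15, where 6 of 9 members had a promoter.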

Additional observations from a re-analysis of the deposited data

How the results depend on the processing

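The number of members that passed as lower was 0 in limma, 2 with the signal-dependent spread, 3 without probes under the median signal, 1 when named probes alone were tested and 3 with the signal-dependent spread and the replicate block together. It was 5 at an unadjusted p, where 1 was higher, and by the methods' t-test 0 adjusted and 3 unadjusted, where again 1 was higher. Without any 1 array it was 0, and 1 to 3 with the signal-dependent spread, the settings that lose samples. Of the other pathway genes, 3 passed as lower and 0 as higher in limma. The counts were 24 and 4 with the signal-dependent spread, 26 and 4 when the replicate block was added to it, 20 and 2 without the dimmer probes, 17 and 1 for named probes alone and 6 and 0 after quantile normalization. They were 30 and 5 at an unadjusted p, and 0 and 0 adjusted and 23 and 7 unadjusted by the methods' t-test. Without any 1 array, 0 were lower and 0 higher, or, with the signal-dependent spread, 24, 25, 16 and 15 lower and 0 to 5 higher. Shares of all probes were counted for limma, the signal-dependent spread and the unadjusted p of limma, as given above. For the other settings no share was counted, so their counts cannot be set against all probes. The cause of these differences was not tested. With the probes of a gene averaged, 0 members and 3 other pathway genes were lower and 0 of either higher, as in limma on single probes. The replicate number as a block left 0 members and 0 other pathway genes past the threshold. Differences between replicates 1 and 2 correlated at 0.002 between the groups across probes, so the numbers were not taken to pair the arrays. The median of the members ranged from -0.36 after quantile normalization to -0.27 without shControl replicate 1. Without any 1 array STING1 ranged from -0.0801 to 0.104, with -0.0656 without shControl replicate 1 and -0.0801 without FDXR sh434 replicate 2, and IRF9 from -0.0507 to 0.0089, the last without shControl replicate 2, with and without the signal-dependent spread. Over the alternatives the adjusted p of RIGI ranged from 0.00018 to 0.438 and that of TLR3 from 0.0173 to 0.472.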
